A study of Homo sapiens with 4 samples.

Results

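The TAM receptors are a family of receptor tyrosine kinases named after TYRO3, AXL and MERTK. With their secreted ligands GAS6 and PROS1 they make up the 5 genes described here, of 22411 genes measured by transcript clusters that the platform's annotation ties to a single symbol. The genes were chosen by family membership, and the cluster that stands for a gene was selected on its level, as the one with the highest mean over the 4 arrays. Each of the 5 genes had 1 such cluster, so the choice removed nothing. The family was proposed with results of these arrays known, among them a rise of AXL, so the AXL values are given as a description with no test.

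GAS6 and PROS1, which is also known as protein S, bridge phosphatidylserine on the surface of dying cells, vesicles or platelets to a TAM receptor on a neighbouring cell. Binding activates the receptor's kinase, which signals through phosphatidylinositol 3-kinase, the MAP kinase pathway and STAT proteins. MERTK and AXL are known for the uptake of apoptotic cells and for damping innate immune responses. In carcinomas AXL is known for cell migration, survival and resistance to kinase inhibitors, and it is counted among the genes that YAP and TAZ, the effectors of Hippo signalling, switch on. PROS1 is also an anticoagulant, as a cofactor of activated protein C and of TFPI.

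The arrays came from HCT116, an established human colon carcinoma cell line whose own CTNNB1 gene carries an activating mutation. Cells were transfected with 50 nM of a control siRNA or of a CTNNB1 siRNA, delivered with a lipid reagent, and total RNA was taken after 48 h. Each treatment had 2 biological replicates with 1 array each. The sequences of the siRNAs, whether each was 1 duplex or a pool, and whether the replicates were separate cultures are not given in the labels, so p-values measure only the spread between these samples. CTNNB1, the gene for the Wnt pathway co-activator beta-catenin, lay at 10.06 and 10.20 log2 units on the control arrays and at 6.50 and 6.65 on the CTNNB1 siRNA arrays, so the targeted gene was low where the labels say that it was silenced. Over the 15679 tested genes, which are not independent replicates, r was 0.997 between replicate arrays of either treatment and 0.977 to 0.980 between arrays of different treatments. Of 10 listed epithelial markers, EPCAM, KRT8 and KRT18 lay between 11.49 and 13.71 log2 units on every array. KRT19 and CLDN7 lay between 9.31 and 10.92, CDH1 between 6.80 and 9.48 and LGALS4 between 4.80 and 4.90. CDX1, CDX2 and VIL1 lay below the level filter of 4.29.

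Levels are deposited log2 expression values, and a difference of 1 log2 unit is a 2-fold difference on that scale. Genes were tested where their mean over all 4 arrays passed 4.29 log2 units, the 30th percentile, and all 5 TAM genes passed. Passing the threshold means a p under 0.05 in limma after Benjamini-Hochberg adjustment over all tested genes, and every p below is adjusted in that way unless said otherwise. The number of arrays limits the precision throughout.

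Upstream sequences are shown for AXL, the member with the largest difference, and for GAS6 and PROS1, which passed the threshold. They show the DNA before annotated transcript starts, and which starts these cells used was not tested. They come from RefSeq on GRCh38.p14, and each is the 250 bases before an annotated start, 5′ to 3′ on the gene's strand. All 5 genes matched the RefSeq promoter table, with 7 windows in all, since AXL and TYRO3 have 2 starts each. AXL lies on the plus strand of chromosome 19, with windows at chr19:41218973-41219222 and chr19:41226505-41226754. GAS6 lies on the minus strand of chromosome 13, with its window at chr13:113864077-113864326, and PROS1 on the minus strand of chromosome 3, with its window at chr3:93973897-93974146. Capitals mark matches on either strand to GGAATG, the core bound by TEAD factors, to TGACTCA or TGAGTCA, the AP-1 site, to TCAAAG, the core bound by TCF and LEF factors, or to GGGCGG, the SP1 site. No match of one motif overlapped another in the windows shown.
AXL, window 1: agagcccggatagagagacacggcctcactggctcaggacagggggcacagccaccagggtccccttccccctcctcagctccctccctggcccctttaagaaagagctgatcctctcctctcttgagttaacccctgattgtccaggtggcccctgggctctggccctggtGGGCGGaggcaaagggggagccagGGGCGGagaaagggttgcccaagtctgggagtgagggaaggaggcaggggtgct
AXL, window 2: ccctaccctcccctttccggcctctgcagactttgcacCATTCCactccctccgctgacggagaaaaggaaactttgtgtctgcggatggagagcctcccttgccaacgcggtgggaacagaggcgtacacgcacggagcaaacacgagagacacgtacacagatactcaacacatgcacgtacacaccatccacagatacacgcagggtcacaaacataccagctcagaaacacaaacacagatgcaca
GAS6: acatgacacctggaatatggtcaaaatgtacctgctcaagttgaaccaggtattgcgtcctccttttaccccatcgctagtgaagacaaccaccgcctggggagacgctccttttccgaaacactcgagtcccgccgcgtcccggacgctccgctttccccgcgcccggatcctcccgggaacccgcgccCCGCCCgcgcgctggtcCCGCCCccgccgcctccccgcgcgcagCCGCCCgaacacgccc
PROS1: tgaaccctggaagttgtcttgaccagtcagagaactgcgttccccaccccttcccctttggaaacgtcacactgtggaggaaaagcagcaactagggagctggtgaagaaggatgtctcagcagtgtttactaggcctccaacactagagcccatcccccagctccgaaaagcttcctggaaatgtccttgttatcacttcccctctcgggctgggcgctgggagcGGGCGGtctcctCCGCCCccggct

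The first AXL window held 2 SP1 matches, 78 and 54 bases before the start. Its GC content was 64.4%, against a median of 58.0% over all RefSeq windows. The second AXL window held 1 TEAD match, on the opposite strand and 212 bases before the start, and no other match. GAS6 had 3 SP1 matches and PROS1 had 2. The windows of TYRO3 and MERTK, not shown, held 3 and 4 SP1 matches, all 3 of TYRO3 in the first of its windows. None of the 7 windows held a TCF/LEF or an AP-1 match. Among all 35116 RefSeq windows of the same length, 42.6% held the SP1 letters, 11.9% the TEAD letters, 11.2% the TCF/LEF letters and 4.2% the AP-1 letters. These shares are not matched to windows of like GC content, and the SP1 letters are all G or C. GC content of the 7 windows ran from 54.4% in the second AXL window to 80.0% in the first TYRO3 window. A match describes letters in a window and is no evidence of binding, and these motifs outside the windows were not searched.

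AXL had the largest difference of the family and was 6.13-fold higher with CTNNB1 siRNA. TYRO3 and MERTK did not pass the threshold. Of the ligands, PROS1 rose 1.54-fold and GAS6 fell 1.27-fold. Apart from AXL, 2 of the 4 other TAM genes thus passed the threshold, where 30.3% of all tested genes did. With the level filter at the 50th percentile, 4715 of 11201 tested genes passed. The 30.3% is therefore not matched to genes of like level, here or beside the lists below. The groups did not overlap for any of the 5 genes, as was true of 63.0% of all tested genes, so the lack of overlap sets none of them apart.

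**Figure D1:**
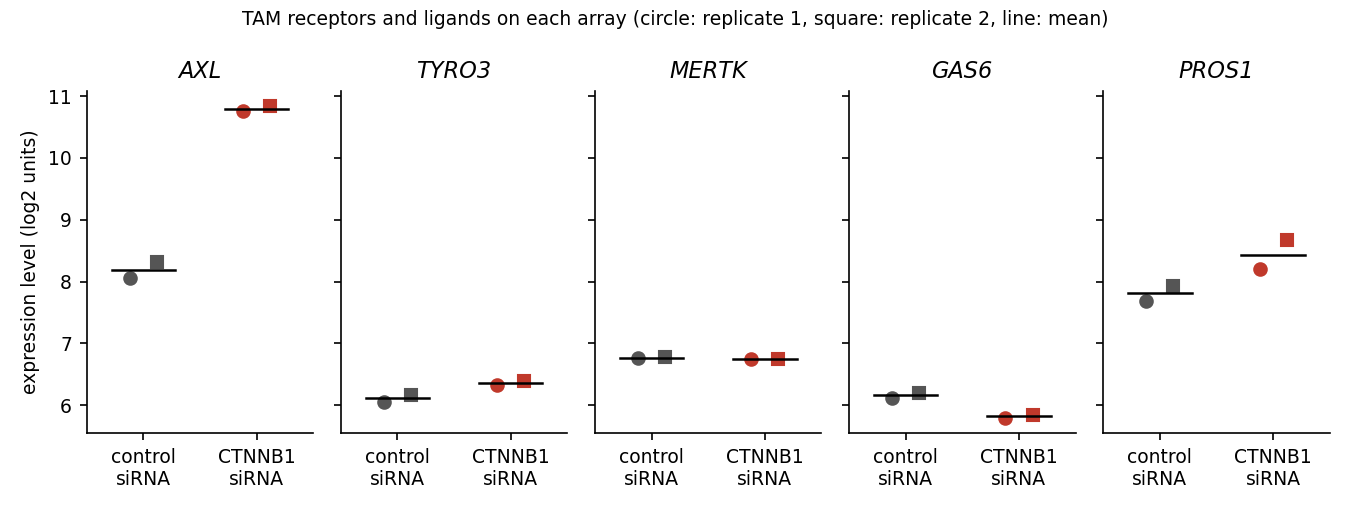
Expression level in log2 units (vertical axis) of the 5 TAM genes on each of the 4 arrays, with control siRNA in grey and CTNNB1 siRNA in red; circles are replicate 1, squares replicate 2 and lines group means. AXL moves from 8.06 and 8.31 to 10.76 and 10.84, while MERTK stays between 6.75 and 6.78.

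AXL, the receptor with the highest affinity for GAS6, was measured by cluster TC19000576.hg.1. Its level was 8.06 and 8.31 log2 units with control siRNA and 10.76 and 10.84 with CTNNB1 siRNA. Both silenced arrays lay well above both control arrays, and the lowest of the 4 differences between a silenced and a control array was 2.45, the highest 2.78. The group means were 8.19 ± 0.18 and 10.80 ± 0.06 (SD, n = 2 each), a log2 fold change of 2.62 (SE 0.11), or 6.13-fold on the deposited scale. With any 1 array left out it lay between 2.49 and 2.74. Within the arrays AXL moved from between the 77.0th and 78.9th percentile of the 22411 genes to the 93.4th on both silenced arrays. By size of change it ranked 34 of 15679 tested genes, and 20 among the rises. In a bulk array, more cells that express a gene and more RNA per cell cannot be told apart.

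TYRO3, the member of the family best known from neurons, lay at 6.06 and 6.17 log2 units with control siRNA and at 6.32 and 6.39 with CTNNB1 siRNA. Both silenced arrays were above both controls, by between 0.15 and 0.33. The log2 fold change was 0.24 (SE 0.08, 95% interval 0.03 to 0.45) with an adjusted p of 0.085 in limma, so the difference did not pass. Its pseudogene TYRO3P, named after its values were seen, had its own cluster, with a log2 fold change of -0.13 (SE 0.12) and an adjusted p of 0.52 in limma. How far either cluster's signal holds RNA of the other gene was not tested.

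MERTK, the TAM receptor of professional phagocytes, lay at 6.76 and 6.78 log2 units with control siRNA and at 6.75 on both silenced arrays. These are the closest groups of the family. The log2 fold change was -0.02 (SE 0.07, adjusted p of 0.89 in limma), and the 95% interval of the difference ran from -0.21 to 0.17.

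GAS6, the ligand of all 3 TAM receptors, lay at 6.12 and 6.20 log2 units with control siRNA and at 5.80 and 5.84 with CTNNB1 siRNA. Both silenced arrays were below both controls. On the log2 scale GAS6 fell by 0.34 (SE 0.08, 95% interval -0.54 to -0.14) with an adjusted p of 0.024 in limma. Leaving out 1 array at a time gave values between -0.38 and -0.30 that did not pass, with adjusted p-values between 0.11 and 0.14 in limma, where 1 residual degree of freedom was left and no tested gene passed. GAS6-DT, a noncoding gene that starts next to GAS6 on the opposite strand and was named after its values were seen, lay at 5.44 and 5.36 log2 units against 4.94 and 5.01, and fell by 0.43 (SE 0.08, adjusted p of 0.013 in limma). GAS6-AS1, antisense to GAS6 and also named afterwards, lay at 6.64 and 6.35 against 7.02 and 6.59 in the brighter of its 2 clusters, and these groups overlapped (log2 fold change 0.31, SE 0.17, adjusted p of 0.25 in limma). The labels do not say how clusters treat strand, so signals of overlapping genes may be mixed.

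PROS1, the ligand of TYRO3 and MERTK, lay at 7.69 and 7.93 log2 units with control siRNA and at 8.20 and 8.67 with CTNNB1 siRNA. The silenced arrays were above the controls but differed from each other by more than any other replicate pair of the family. PROS1 rose by 0.63 log2 units (SE 0.17, 95% interval 0.19 to 1.06, adjusted p of 0.043 in limma). This call was lost without a level filter (adjusted p of 0.061 in limma). Like every other call, it was also lost with any 1 array left out, where 1 residual degree of freedom remained. Without CTNNB1 siRNA replicate 2 the log2 fold change was 0.39, and without CTNNB1 siRNA replicate 1 it was 0.86. PROS1 has a pseudogene, PROS2P, whose share in the cluster's signal was not tested.

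The log2 ratio of PROS1 to GAS6 on the same array, which shows unequal change and no ratio of amounts, was 1.57 and 1.73 with control siRNA and 2.40 and 2.83 with CTNNB1 siRNA. The means differed by 0.97. PROS1 was higher and GAS6 lower on both silenced arrays, so the groups of the ratio could not overlap. The exact two-sided permutation test therefore had to give p = 0.33, the smallest that 2 arrays against 2 allow. It adds nothing to the changes of the 2 genes.

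**Figure D2:**
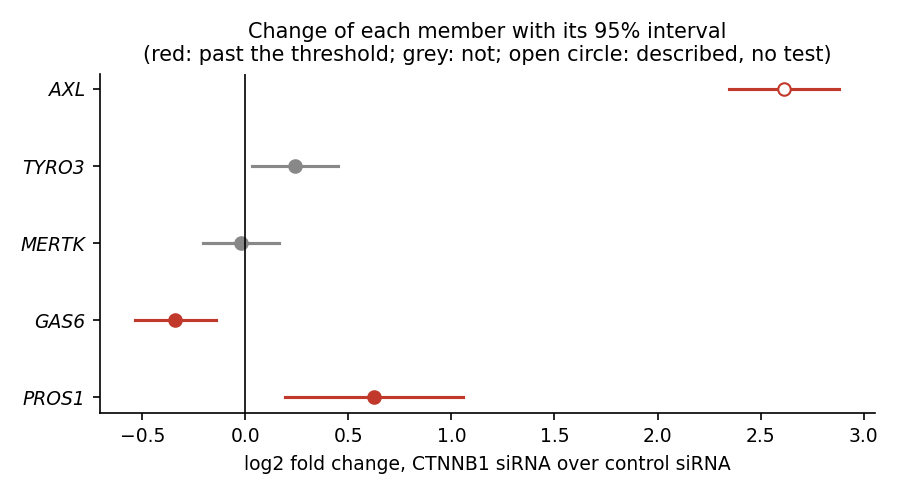
Log2 fold change of each TAM gene with CTNNB1 siRNA over control siRNA (horizontal axis), with limma's 95% interval as a bar. GAS6 and PROS1 (red) passed the threshold in opposite directions, and TYRO3 and MERTK (grey) did not pass. AXL (open circle, also drawn in red) is described without a test, and its colour and bar are not read as one.

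AXL was then set beside the other receptor tyrosine kinases of the genome. Of 55 listed, 33 were tested, 19 lay below the level filter and the other 3 were not analysed here. Of the 33, 4 rose and 5 fell, and 24 did not pass, which is 27.3% called against 30.3% of all tested genes (14.2% higher and 16.1% lower). The median log2 fold change was 0.01, against -0.02 over all tested genes. MET, the receptor for hepatocyte growth factor and a reported partner of AXL, lay at 12.65 and 12.77 log2 units with control siRNA and at 13.76 and 13.92 with CTNNB1 siRNA. It rose by 1.13 (SE 0.10, adjusted p of 0.0010 in limma), the change next in size to that of AXL among the 36 tested receptors. ROR1, a receptor for Wnt5a, rose by 0.58 (SE 0.08), from 6.05 and 6.03 to 6.56 and 6.68. IGF1R, the insulin-like growth factor receptor, fell by 0.79 (SE 0.09) from 7.40 and 7.55 to 6.70 and 6.67, and FGFR2, a fibroblast growth factor receptor, fell by 0.59 (SE 0.09). EGFR, also a reported partner of AXL and named after its values were seen, did not pass, at a log2 fold change of -0.23 (SE 0.11, adjusted p of 0.18 in limma).

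**Figure D3:**
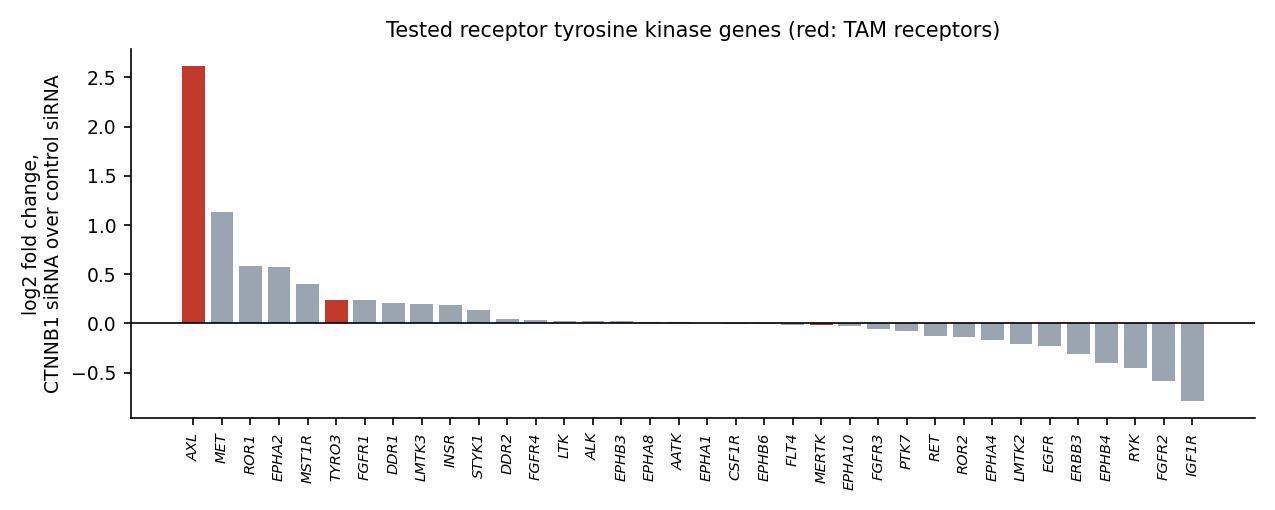
Log2 fold change of the 36 tested receptor tyrosine kinase genes with CTNNB1 siRNA over control siRNA (bars from 0), in order of the change; TAM receptors are red. AXL at 2.62 is followed by MET at 1.13, TYRO3 stands at 0.24 and MERTK at -0.02.

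Ligand maturation showed no call. GAS6 and PROS1 need vitamin K-dependent carboxylation to bind phosphatidylserine, and none of the 6 genes listed for it or as other proposed TAM ligands passed, where 30.3% of all tested genes did. In limma 1 of the 6 had an unadjusted p under 0.05. The carboxylase GGCX lay between 6.69 and 6.84 log2 units on all arrays, with a log2 fold change of -0.01 (SE 0.09). Of the reductases that recycle vitamin K, VKORC1 stood at a log2 fold change of -0.13 (SE 0.08) and VKORC1L1 at -0.17 (SE 0.10). Among the other proposed ligands, the galectin gene LGALS3 lay at 10.53 and 10.63 log2 units against 10.18 and 10.43, a log2 fold change of -0.28 (SE 0.11, adjusted p of 0.12 in limma). TUB and TULP1 lay between 4.43 and 4.73 on every array, with log2 fold changes of -0.06 (SE 0.10) and 0.01 (SE 0.09).

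Genes that expose phosphatidylserine or bind it by other routes moved both ways. Of 24 listed, 17 were tested, of which 4 rose and 4 fell (47.1% called, against 30.3% of all tested genes), with a median log2 fold change of -0.03. MFGE8, a secreted bridge between phosphatidylserine and integrins, lay at 8.13 and 8.07 log2 units with control siRNA and at 9.63 and 9.82 with CTNNB1 siRNA. It rose by 1.63 (SE 0.10). ITGAV, the integrin subunit of the receptors that MFGE8 binds, rose by 1.45 (SE 0.12), from 9.59 and 9.88 to 11.12 and 11.24. The phospholipid scramblase family gene PLSCR4 rose by 0.88 (SE 0.12) and ATP8B1, a flippase of the canalicular and brush border membrane, by 0.63 (SE 0.11). In limma these 4 genes had adjusted p-values from 0.00043 to 0.0090. The genes that fell, named after their values were seen, were ITGB5, a partner subunit of ITGAV, the flippase genes ATP11A and ATP11B, and PLSCR3, with log2 fold changes between -0.60 and -0.35. The scramblase gene ANO6, also named afterwards, lay between 10.81 and 10.95 on all arrays and did not pass.

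Among genes of receptor shedding and intramembrane cleavage, which release the extracellular part of AXL and MERTK and cut the remaining stub, 3 of 10 tested rose and 1 fell (40.0% called, against 30.3% of all tested genes), with a median of 0.07. ADAM17, a sheddase of MERTK and AXL, lay at 10.82 and 10.83 log2 units against 11.74 and 11.85 and rose by 0.97 (SE 0.08). ADAM9, a related protease, rose by 0.79 (SE 0.10). NCSTN and PSENEN, both subunits of gamma-secretase, went in opposite directions: NCSTN rose by 0.77 (SE 0.08) and PSENEN fell by 0.68 (SE 0.08). ADAM10, the other AXL sheddase, named after its values were seen, lay between 11.18 and 11.39 on every array and did not pass (log2 fold change 0.11, SE 0.09).

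Downstream of the receptors, 14 of 26 tested adaptors, kinases and feedback genes passed, 9 higher and 5 lower (53.8% called, against 30.3% of all tested genes), with a median of 0.23. STAT3, a transcription factor activated by TAM receptors and by cytokine receptors, lay at 9.46 and 9.71 log2 units with control siRNA and at 10.91 and 11.09 with CTNNB1 siRNA. It rose by 1.42 (SE 0.12, adjusted p of 0.00099 in limma). The focal adhesion kinase gene PTK2 rose by 1.23 (SE 0.10), from 9.19 and 9.05 to 10.27 and 10.42, and SOS1, the exchange factor that loads RAS, by 0.96 (SE 0.10). CBLB, a ubiquitin ligase that is known in mouse natural killer cells to target TAM receptors, fell by 0.91 (SE 0.13), from 7.50 and 7.51 to 6.41 and 6.78. Of the genes named here after their values were seen, the interferon receptor subunit IFNAR1, which in mouse dendritic cells works together with TAM receptors, rose by 0.66 (SE 0.08), the subunit PIK3R1 of phosphatidylinositol 3-kinase rose by 0.53 (SE 0.09), and GRB2 rose by 0.40 (SE 0.10). The groups overlapped for AKT1, at a log2 fold change of -0.05 (SE 0.13). Of 36 listed genes, 6 had no cluster with a single symbol and 4 had means below the level filter, among them SOCS1 and SOCS3, feedback inhibitors induced by TAM signalling.

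PROS1 has partners outside the TAM system. Of 13 genes of anticoagulation and complement listed with it, 8 were tested, of which 3 rose and none fell (37.5% called, against 30.3% of all tested genes), with a median of 0.08. TFPI, which inhibits the tissue factor pathway with PROS1 as a cofactor, lay at 9.14 and 8.94 log2 units with control siRNA and at 12.80 and 12.71 with CTNNB1 siRNA, a rise by 3.72 (SE 0.10). PROCR, the endothelial protein C receptor, rose by 0.85 (SE 0.15), from 8.14 and 8.53 to 9.10 and 9.26. F3, the tissue factor gene, rose by 0.35 (SE 0.08). C4BPA and C4BPB, which encode the complement regulator that binds PROS1 in plasma, lay below the level filter on every array, as did the coagulation factor genes F5 and F8, and PROC had a group mean close to it.

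Factors reported to act on AXL moved in both directions. Of 19 tested, 6 rose and 3 fell (47.4% called, against 30.3% of all tested genes), with a median of -0.01. FOSL1, an AP-1 subunit, lay at 7.24 and 7.13 log2 units with control siRNA and at 8.38 and 8.35 with CTNNB1 siRNA, a rise by 1.18 (SE 0.08). JUN, its usual partner, rose by 0.75 (SE 0.08), from 5.57 and 5.49 to 6.27 and 6.29, and HIF1A, the hypoxia-inducible factor subunit, by 0.73 (SE 0.08). TEAD1, a DNA-binding partner of YAP and TAZ, fell by 1.01 (SE 0.08), from 10.99 and 10.96 to 9.99 and 9.95. Of those named after their values were seen, WWTR1, the gene for TAZ, rose by 0.70 (SE 0.10), while YAP1 overlapped between the groups at a log2 fold change of -0.14 (SE 0.13). TEAD2 fell by 0.70 (SE 0.11) and SP1 by 0.36 (SE 0.10). With any 1 array left out, none of the calls in these lists held at the adjusted threshold.

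**Figure D4:**
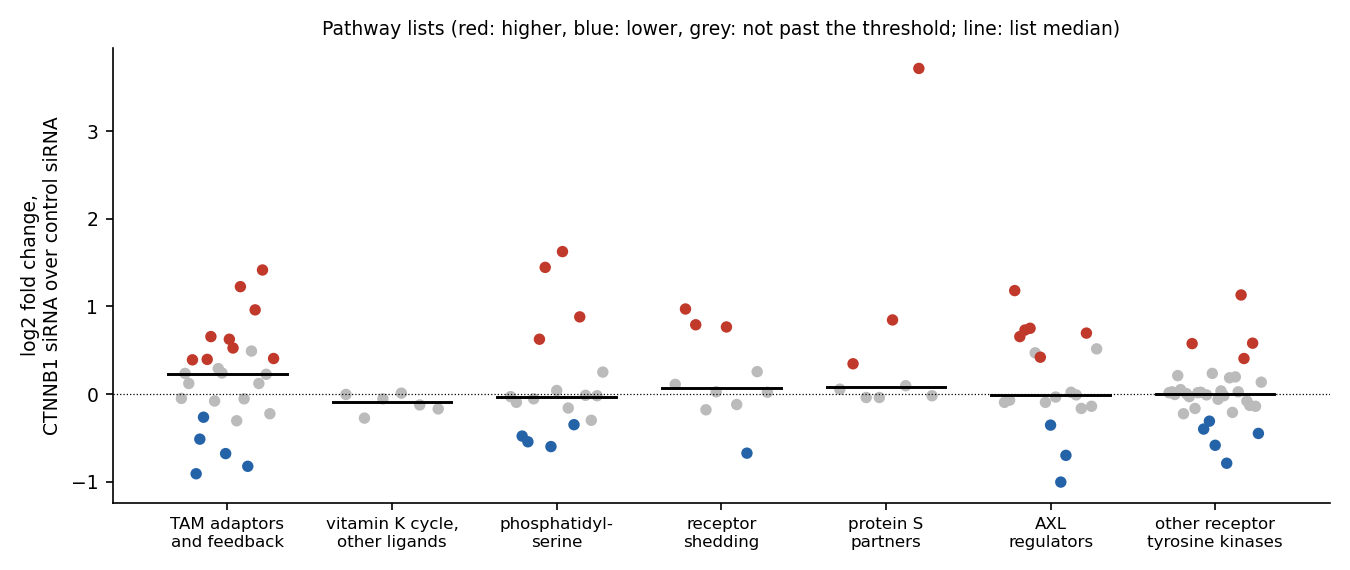
Log2 fold change with CTNNB1 siRNA over control siRNA (vertical axis) of each tested gene in 7 lists around the TAM genes; red genes passed higher, blue genes passed lower, grey genes did not pass, and black lines are list medians. Medians lie between -0.09 and 0.23, and TFPI, at 3.72, is the highest point.

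The genes whose profile over the 4 arrays lay closest to that of AXL, by Euclidean distance between mean-centred log2 levels, were ATP6V1A, a subunit of the vacuolar proton pump (distance 0.11), SETD7, a lysine methyltransferase gene (0.12), BLVRB, a biliverdin reductase gene (0.21), SLC41A2, a magnesium transporter gene (0.23), and ELOVL6, a fatty acid elongase gene (0.24). ATP6V1A lay at 8.80 and 9.04 log2 units with control siRNA and at 11.44 on both silenced arrays. SETD7 lay at 8.08 and 8.44 against 10.92 and 11.02. In 4 of these 5 genes, as in AXL, control replicate 2 lay above control replicate 1, with ELOVL6 the exception. The choice by distance over the same arrays favours a shared order of replicates. Closeness over 4 arrays of 2 treatments describes size of change and little else.

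Markers of other cell types were also read, because AXL and MERTK are abundant in fibroblasts and macrophages. Of 10 listed, 4 lay below the level filter, among them PTPRC of leukocytes (3.74 to 3.82), COL1A2 of fibroblasts (4.08 to 4.20) and PECAM1 of endothelium (2.76 to 2.86), and 5 of the 6 tested did not pass (16.7% called, against 30.3% of all tested genes). COL1A1 and DCN of fibroblasts lay between 5.20 and 5.51 and between 4.21 and 4.37 log2 units, CD3E of T cells between 4.50 and 4.78 and CDH5 of endothelium between 4.20 and 4.38. CD68, a lysosomal protein used as a macrophage marker, rose by 1.64 (SE 0.08), from 7.41 and 7.39 to 8.99 and 9.08, while CSF1R, the macrophage growth factor receptor, stayed between 4.34 and 4.48. Of the 7 tested epithelial markers 4 rose and none fell (57.1% called, where 14.2% of all tested genes rose and 16.1% fell), with CDH1, the E-cadherin gene, from 6.80 and 7.20 to 9.06 and 9.48 and KRT8, an epithelial keratin gene, from 12.73 and 12.90 to 13.71 and 13.69. The part of these marker changes in the TAM values was not tested.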

How the data were processed

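Biotin-labelled cDNA from total RNA of 4 HCT116 samples was measured on Affymetrix arrays, 1 per sample, per the labels. The authors deposited log2 expression levels per transcript cluster, made with Affymetrix Expression Console and RMA per the submitters' processing notes. The labels name no version, no kind of RMA and no genome build, and whether folds on the deposited scale were widened is unknown. Array medians lay between 4.58 and 4.66. The table held 67528 clusters. The platform annotation gave 1 symbol to 23781 of them and several to 1543. Names were brought up to date with RefSeq's table for GRCh38.p14, which left 22411 genes.

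Tested genes had a mean over 4 arrays above the 30th percentile (4.29). The fit used limma 3.58.1 under R 4.3.3 (lmFit, eBayes, 2 groups, no block), with 2 residual degrees of freedom, 5.66 once moderated. P-values were adjusted by the Benjamini-Hochberg method over 15679 genes, with a threshold of 0.05. Members and lists were chosen with earlier results of these data known. The text names all members, CTNNB1, up to 4 called genes per list with the largest change and no overlap between groups, every gene of lists with 6 or fewer tested, and the 5 genes closest to AXL. Other names, cell type markers among them, were picked after their values were seen. The fit was tested on simulated data of 15679 genes: among 67 with a 1.5-fold change it found 91.0%, and among 67 with a 2-fold change 100%, while 4.0% of calls were false. The simulated noise was normal and independent between genes, and far fewer genes were changed than were called on the arrays. These shares therefore need not hold for the arrays. Plots: matplotlib 3.10.9, Python 3.11.15.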

Additional observations from a re-analysis of the deposited data

How the results depend on the processing

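AXL had log2 fold changes between 2.49 and 2.74 under the 11 alternatives. Changes of level filter or of model could not alter its value of 2.615. With 1 array left out its direction could not turn, since both silenced arrays lay above both control arrays. TYRO3 and MERTK passed the threshold under none of the 11. GAS6 passed under each of the 7 alternatives that kept all 4 arrays. PROS1 passed under 6 of these 7 and was lost without a level filter, at a log2 fold change of 0.625 and an adjusted p of 0.061 in limma, where 22411 genes were tested. With 1 array left out, 1 residual degree of freedom remained and limma called 0 genes, in every list too, although between 4732 and 4930 genes had an unadjusted p under 0.05. The log2 fold change then lay between -0.38 and -0.30 for GAS6 and between 0.39 and 0.86 for PROS1. The labels do not say that replicate numbers mark shared cultures, and the deviations of same-numbered arrays correlated across genes with r = 0.27. With the replicate number as a block, 3898 genes passed in place of 4756, and PROS1 (adjusted p 0.038 in limma) and GAS6 (0.044) kept their calls. In the 7 alternatives with all arrays, no count of the 7 lists around the TAM genes moved by more than 1.5 times. The counts of cell type markers were not repeated under the alternatives. Levels near the filter of 4.29 limit what can be seen of low genes.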
